A study of Mus musculus with 2 samples.

Results

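The circadian clock genes followed here are 10 genes of the core loop and its near outputs, namely Per1, Per2, Per3, Cry1, Cry2, Arntl, Clock, Dbp, Nr1d1 and Nr1d2. They were chosen by their symbols in the count tables and not by their values, and all 10 of them were found among the 27998 genes of both tables. The tables come from single-nucleus RNA sequencing (snRNA-seq) of frozen whole mouse brains, in which copies of the same RNA molecule are collapsed by a barcode, the unique molecular identifier or UMI, so that UMIs count molecules. The WBRT-28d library came from 2 mice whose brains had received 5 fractions of 2 Gy and were taken 28 days later. The ShamRT-28d library came from 2 mock-irradiated mice, which the sample labels call untreated, taken at the same interval. All mice were wild-type animals, C57BL/6 in the labels and C57BL/6J in the methods, bought by the study as females of 4 to 6 weeks, and their age at harvest is not given in the sources used here. The brains of each condition were pooled and nuclei cannot be traced to a mouse, so there is 1 library per condition, no spread between mice and no test between the conditions. The comparison asks whether the libraries differ in the state of the clock, since a different hour of harvest would also change these genes. The hour of harvest is not given in the sources used here, and irradiation, the mice, the hour and the library cannot be told apart.

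In mammals the clock is a loop of transcription and repression that runs in nearly every cell, the brain included. Clock and its partner Bmal1, encoded by Arntl, bind E-box sequences and switch on the Per and Cry genes, whose proteins return to the nucleus and repress them. They also switch on Nr1d1 and Nr1d2, which encode the receptors Rev-erb alpha and beta that repress Arntl, and Dbp, an activator that binds D-box sequences. In rodent tissues the RNA of Dbp, Nr1d1 and the Per genes peaks at nearly the opposite time of day to that of Arntl, while Clock RNA is flatter.

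In the GENCODE annotation of build GRCm38, whose gene IDs matched those of all 10 genes, the activators Arntl and Clock lie at chr7:113207465-113314126 on the plus strand and chr5:76209868-76304792 on the minus strand. Per1 lies at chr11:69095217-69109960 on the plus strand, Per2 at chr1:91415982-91459324 on the minus strand and Per3 at chr4:151003652-151044665 on the minus strand. Cry1 lies at chr10:85131700-85185064 and Cry2 at chr2:92403646-92434043, both on the minus strand. Nr1d1 lies at chr11:98767932-98775333 and Nr1d2 at chr14:18204054-18239127, both on the minus strand, and Dbp at chr7:45705088-45710203 on the plus strand. Introns were counted in these data, so overlaps bear on the counts. Per3 lies wholly within Camta1, a gene on the same strand, over all of its 41014 bases, and how the authors' annotation shared out such reads is not given in the sources used here. The ends of Nr1d1 and Dbp overlap Thra by 1075 bases and Sphk2 by 737 bases on the opposite strand. Cry2 and Arntl overlap the antisense genes D930015M05Rik and Gm45355, and Clock overlaps Ube2n-ps1 and Gm43658 on its own strand, none of which is in the count tables. Whether the counting used strand is not given in the sources used here.

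RefSeq promoters of GRCm38.p6, each 250 bases before to 50 bases after a transcript start, were found for 9 of the 10 genes, in 13 windows, with none for Per2. The 4 motifs of the loop were searched on both strands, the E-box CACGTG, the weaker form of it CACGTT, the D-box TTATGTAA and TAGGTCA, which is bound by Rev-erb and ROR receptors. The E-box was found in Per1 and Cry1, against 7.15% of 32851 promoters, and CACGTT in Cry1, Cry2 and Nr1d1, against 4.68%. The D-box was found in Per3 alone of the 9 genes, with 2 matches, against 0.938% of promoters, and TAGGTCA in Arntl alone, against 2.61%. A match is a description of the letters and not of binding. The 4 windows below show these motifs in capitals, a match on the other strand as its reverse complement. They are from Per3, the member with most differences between the libraries, and from Per1, Cry1 and Arntl. Cry2 and Nr1d1, which also had a match, are not shown.
Per3, chr4:151044616-151044915, minus strand: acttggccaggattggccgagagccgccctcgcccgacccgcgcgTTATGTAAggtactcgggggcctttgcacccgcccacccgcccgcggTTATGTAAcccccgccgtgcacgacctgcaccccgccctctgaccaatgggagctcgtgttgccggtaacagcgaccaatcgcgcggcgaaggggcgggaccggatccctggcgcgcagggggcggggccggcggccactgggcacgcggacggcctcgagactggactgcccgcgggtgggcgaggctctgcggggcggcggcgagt
Per1, chr11:69098699-69098998, plus strand: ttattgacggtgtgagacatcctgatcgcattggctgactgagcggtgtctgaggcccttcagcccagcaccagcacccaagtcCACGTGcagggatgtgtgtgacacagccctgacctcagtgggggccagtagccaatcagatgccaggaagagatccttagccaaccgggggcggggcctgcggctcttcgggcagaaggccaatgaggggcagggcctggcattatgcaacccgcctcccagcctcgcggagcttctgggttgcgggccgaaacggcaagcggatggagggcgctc
Cry1, chr10:85185005-85185304, minus strand: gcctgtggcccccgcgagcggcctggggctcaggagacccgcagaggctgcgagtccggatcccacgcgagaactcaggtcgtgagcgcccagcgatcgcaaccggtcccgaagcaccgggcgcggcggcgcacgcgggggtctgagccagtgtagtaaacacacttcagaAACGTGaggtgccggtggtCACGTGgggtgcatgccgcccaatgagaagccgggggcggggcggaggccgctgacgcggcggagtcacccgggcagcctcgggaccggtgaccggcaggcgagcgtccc
Arntl, chr7:113207261-113207560, plus strand: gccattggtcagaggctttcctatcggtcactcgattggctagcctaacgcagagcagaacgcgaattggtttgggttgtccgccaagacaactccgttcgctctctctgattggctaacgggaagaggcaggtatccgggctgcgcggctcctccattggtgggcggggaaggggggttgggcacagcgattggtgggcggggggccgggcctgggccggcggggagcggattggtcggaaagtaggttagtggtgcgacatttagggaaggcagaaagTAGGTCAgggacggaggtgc

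After filters, 13629 nuclei with 53112768 UMIs were kept in WBRT-28d and 9985 nuclei with 38876228 UMIs in ShamRT-28d, at medians of 2454 and 2316 UMIs per nucleus. Nuclei were clustered and the clusters named by markers into 10 classes of at least 100 nuclei in each library, called X-like because the names rest on markers only. All markers of a class were higher there than in the rest in both libraries for 9 of the 10 classes, and for inhibitory neuron-like nuclei 9 of 9 were in WBRT-28d and 8 of 9 in ShamRT-28d. The thresholds for naming were chosen with the clusters in view, and 372 nuclei of WBRT-28d and 99 of ShamRT-28d, with 9.55% and 1.09% of the UMIs, stayed in unnamed clusters. The libraries differed in their mix, with excitatory neuron-like nuclei at 28.8% in WBRT-28d and 40.0% in ShamRT-28d. They also differed in the level of neuron genes in other classes, used here to estimate free RNA, the RNA outside nuclei that enters droplets. Empty droplets were not measured, and this estimate cannot tell free RNA from doublets that were not removed. The summed level of 8 neuron genes in the 7 classes that are not neurons was 13.4% to 26.7% of the library's level in WBRT-28d and 8.57% to 17.2% in ShamRT-28d. The libraries shared 43 barcodes, which are 0.269% of those of WBRT-28d and 0.375% of those of ShamRT-28d.

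Over all kept nuclei, Per2 and Dbp were higher in WBRT-28d and none of the 10 genes was called lower. A gene was called when its level in WBRT-28d was at least 25% above that in ShamRT-28d, or at most 0.8 of it, and the exact 95% interval of the ratio excluded 1. Levels are UMIs of the gene per 1000000 UMIs (CPM), and ratios are WBRT-28d over ShamRT-28d. These intervals cover counting error only, and a gene needed at least 20 UMIs over both libraries. With 2 of 10 clock genes called higher and 0 called lower, the background over 18428 genes was 10.6% higher and 13.1% lower, and 10 genes are too few to set apart from these shares. The median log2 ratio was 0.08 over the clock genes and -0.01 over all genes.

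The activators differed little. Arntl, the Bmal1 gene, had 62.8 CPM in WBRT-28d (3335 UMIs) and 58.5 CPM in ShamRT-28d (2274 UMIs), a ratio of 1.07 (95% interval 1.02 to 1.13). Clock, its partner, had 147 CPM in WBRT-28d and 142 CPM in ShamRT-28d, a ratio of 1.04 (1.0 to 1.08). Both lay under the fold that was called.

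The 3 Period genes, whose proteins repress the activators, did not move together. Per2 had 46.4 CPM in WBRT-28d (2464 UMIs) and 34.9 CPM in ShamRT-28d (1357 UMIs), a ratio of 1.33 (1.24 to 1.42). Per3 had 58.0 CPM in WBRT-28d (3081 UMIs) and 68.1 CPM in ShamRT-28d (2646 UMIs), a ratio of 0.852 (0.809 to 0.898), an interval wholly under 1 but short of the fold that was called. Per1 had 38.3 CPM in WBRT-28d and 40.1 CPM in ShamRT-28d, a ratio of 0.955 (0.894 to 1.02). Per2 and Per3 thus lay on opposite sides of 1 with intervals that do not meet, and that of Per1 held 1. With each nucleus thinned to 1000 UMIs the ratio of Per2 was 1.16 and was no longer called.

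The Cryptochromes, which repress together with the Period proteins, had ratios near 1. Cry1 had 18.4 CPM in WBRT-28d and 18.5 CPM in ShamRT-28d, a ratio of 0.997 (0.905 to 1.10), and Cry2 had 78.9 CPM in WBRT-28d and 78.2 CPM in ShamRT-28d, a ratio of 1.01 (0.962 to 1.06). Both intervals lie within the bounds of a call.

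Of the direct targets, Dbp had the largest ratio. Dbp had 27.8 CPM in WBRT-28d (1478 UMIs) and 20.2 CPM in ShamRT-28d (787 UMIs), a ratio of 1.37 (1.26 to 1.5). Nr1d1, the gene of Rev-erb alpha, had 19.8 CPM in WBRT-28d and 18.1 CPM in ShamRT-28d, a ratio of 1.09 (0.992 to 1.20). Nr1d2, the gene of Rev-erb beta, had 92.8 CPM in WBRT-28d and 83.3 CPM in ShamRT-28d, a ratio of 1.11 (1.07 to 1.17), and neither interval meets that of Dbp.

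**Figure D1:**
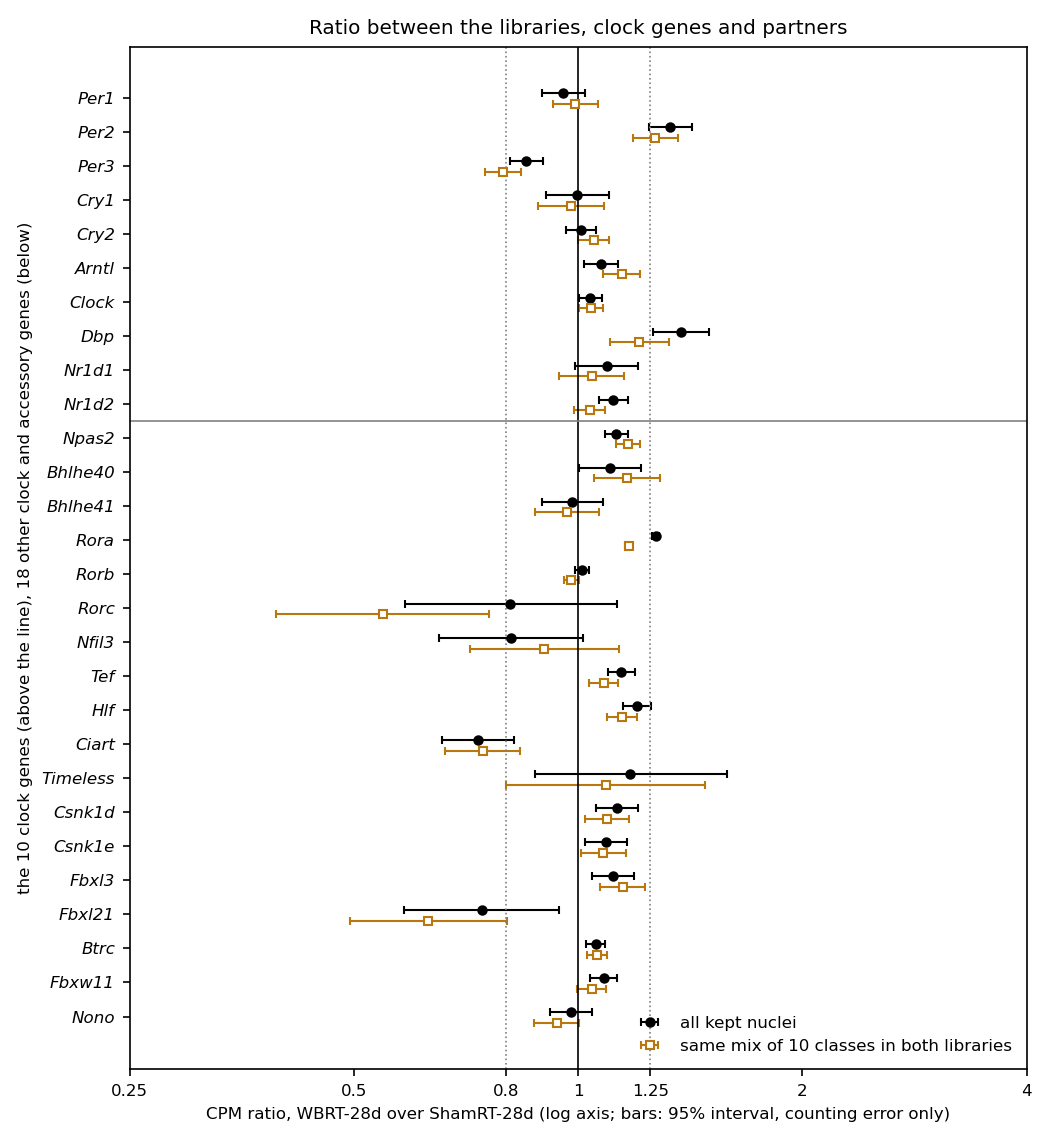
CPM ratio, WBRT-28d over ShamRT-28d (log axis), of the 10 clock genes and 18 other clock and accessory genes, over all kept nuclei (filled circles) and with the same mix of classes in both libraries (open squares), with 95% intervals for counting error. Per2 (1.33 and 1.27) and Dbp (1.37 and 1.21) lie right of 1 and Per3 (0.852 and 0.793) left of it.

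Because cell types differ in these genes and the mix differed between the libraries, the class levels were also averaged with the same weights in both. Per2 was then at 46.8 CPM in WBRT-28d and 36.8 CPM in ShamRT-28d, a ratio of 1.27 (1.18 to 1.36), and was still called. Dbp was at 26.7 CPM in WBRT-28d and 22.1 CPM in ShamRT-28d, a ratio of 1.21 (1.10 to 1.32), and was no longer called. Per3 was at 56.3 CPM in WBRT-28d and 71.0 CPM in ShamRT-28d, a ratio of 0.793 (0.750 to 0.838), and was now called lower. Arntl came to 1.14 (1.08 to 1.21), and the ratios of the other 6 genes lay between 0.977 and 1.05. With the mix made alike the ratio of Dbp was thus nearer to 1, that of Per3 was farther from 1, and Per2 and Per3 were still on opposite sides.

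Within classes, 98 of the 100 pairs of a clock gene and a class had at least 20 UMIs, and 10 (10.2%) were called higher in WBRT-28d and 9 (9.18%) lower. Over all 115454 pairs of a gene and a class these shares were 10.8% and 9.32%, so the clock genes were called no more often than genes at large. In excitatory neuron-like nuclei Per2 and Dbp were called higher and Per3 lower, against 10.8% of 15885 genes higher and 13.2% lower. In inhibitory neuron-like nuclei only Dbp was called, higher, against 7.91% higher and 13.1% lower over all genes. In striatal spiny neuron-like nuclei Nr1d2 was called higher and Per1 and Cry1 lower, against 16.3% and 9.18%. In that class the median log2 ratio of all genes was 0.13, so that ratios near 1 are slightly under its centre.

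In oligodendrocyte-like nuclei Per2, Arntl and Dbp were called higher and Per3 lower, against 16.8% of genes higher and 8.54% lower. In astrocyte-like nuclei Per2 was called higher and Per3, Arntl and Nr1d2 lower, against 8.24% and 10.3%. In microglia-like nuclei Per2 and Arntl were called higher and 0 of the 10 lower, against 12.7% and 8.02%. No clock gene was called in either direction in oligodendrocyte precursor (OPC)-like nuclei (background 7.59% higher and 7.06% lower) or in mural-like nuclei (11.7% and 6.34%), where 9 of the 10 genes could be tested. Per3 was called lower and no gene higher in endothelial-like nuclei (7.83% and 6.66%) and in fibroblast-like nuclei (8.38% and 6.1%), where again 9 genes could be tested.

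**Figure D2:**
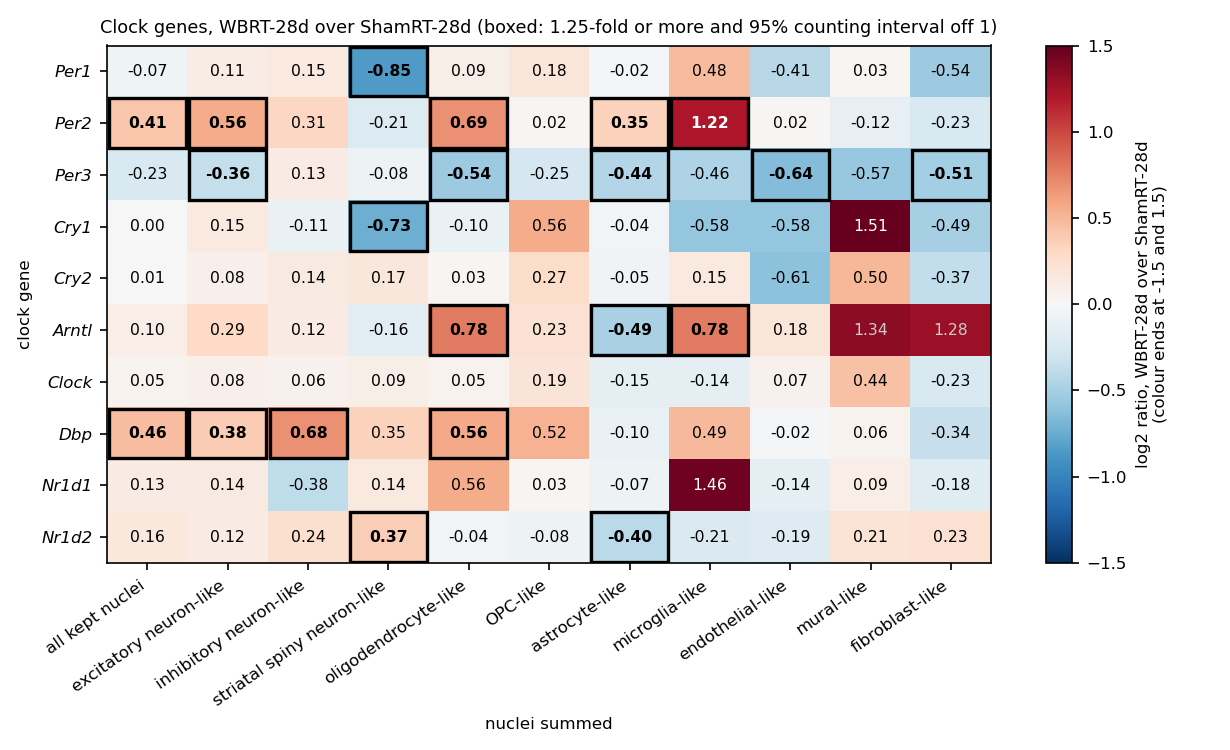
Log2 CPM ratio, WBRT-28d over ShamRT-28d, of each clock gene (down) over all kept nuclei and in each class (across), with called differences boxed and untested values in grey. Per3 is under 0 in 9 of 10 classes, while Per2, Arntl and Dbp change side between classes.

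Per3 was the clock gene with the most calls in 1 direction. It was lower in WBRT-28d in 9 of 10 classes, 5 of them called, and under 1 in 21 of the 24 clusters with enough UMIs, 8 called lower and 0 higher. Gating nuclei singly on markers left 3 classes called, with no value for fibroblast-like nuclei. Excitatory neuron-like nuclei had 52.7 CPM of Per3 in WBRT-28d (896 UMIs) and 67.4 CPM in ShamRT-28d (1336 UMIs), a ratio of 0.782 (0.718 to 0.851), which came to 0.801 to 0.804 and was not called without cluster 7, 14 or 20 or with doublets kept. Astrocyte-like nuclei had 147 CPM in WBRT-28d (581 UMIs) and 199 CPM in ShamRT-28d (355 UMIs), a ratio of 0.738 (0.645 to 0.844), which was 0.915 and not called in thinned nuclei. Fibroblast-like nuclei had 191 CPM in WBRT-28d and 271 CPM in ShamRT-28d, the highest class in both libraries, at a ratio of 0.703 (0.566 to 0.874). Neurons, glia and stromal nuclei are thus all among the classes with less Per3.

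Oligodendrocyte-like nuclei, which had among the lowest Per3, were at 28.5 CPM in WBRT-28d and 41.6 CPM in ShamRT-28d, a ratio of 0.686 (0.545 to 0.861), which was not called in thinned nuclei (0.861) or without cluster 1 (0.739). Endothelial-like nuclei had 69.3 CPM in WBRT-28d (90 UMIs) and 108 CPM in ShamRT-28d (44 UMIs), a ratio of 0.640 (0.441 to 0.939), which was not called under the gate (0.695) or without the mitochondrial limit (0.672). The ratios of microglia-like (0.726), mural-like (0.676), OPC-like (0.842) and striatal spiny neuron-like nuclei (0.947) had intervals that include 1. Inhibitory neuron-like nuclei were the exception, with 36.6 CPM in WBRT-28d and 33.5 CPM in ShamRT-28d, a ratio of 1.09 (0.917 to 1.31). Camta1, the gene that contains Per3, was not lower over all kept nuclei, at 421 CPM in WBRT-28d and 385 CPM in ShamRT-28d, a ratio of 1.09 (1.07 to 1.11), and its class ratios ran from 0.996 to 2.02. The part of shared reads in the counts of Per3 was not tested.

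**Figure D3:**
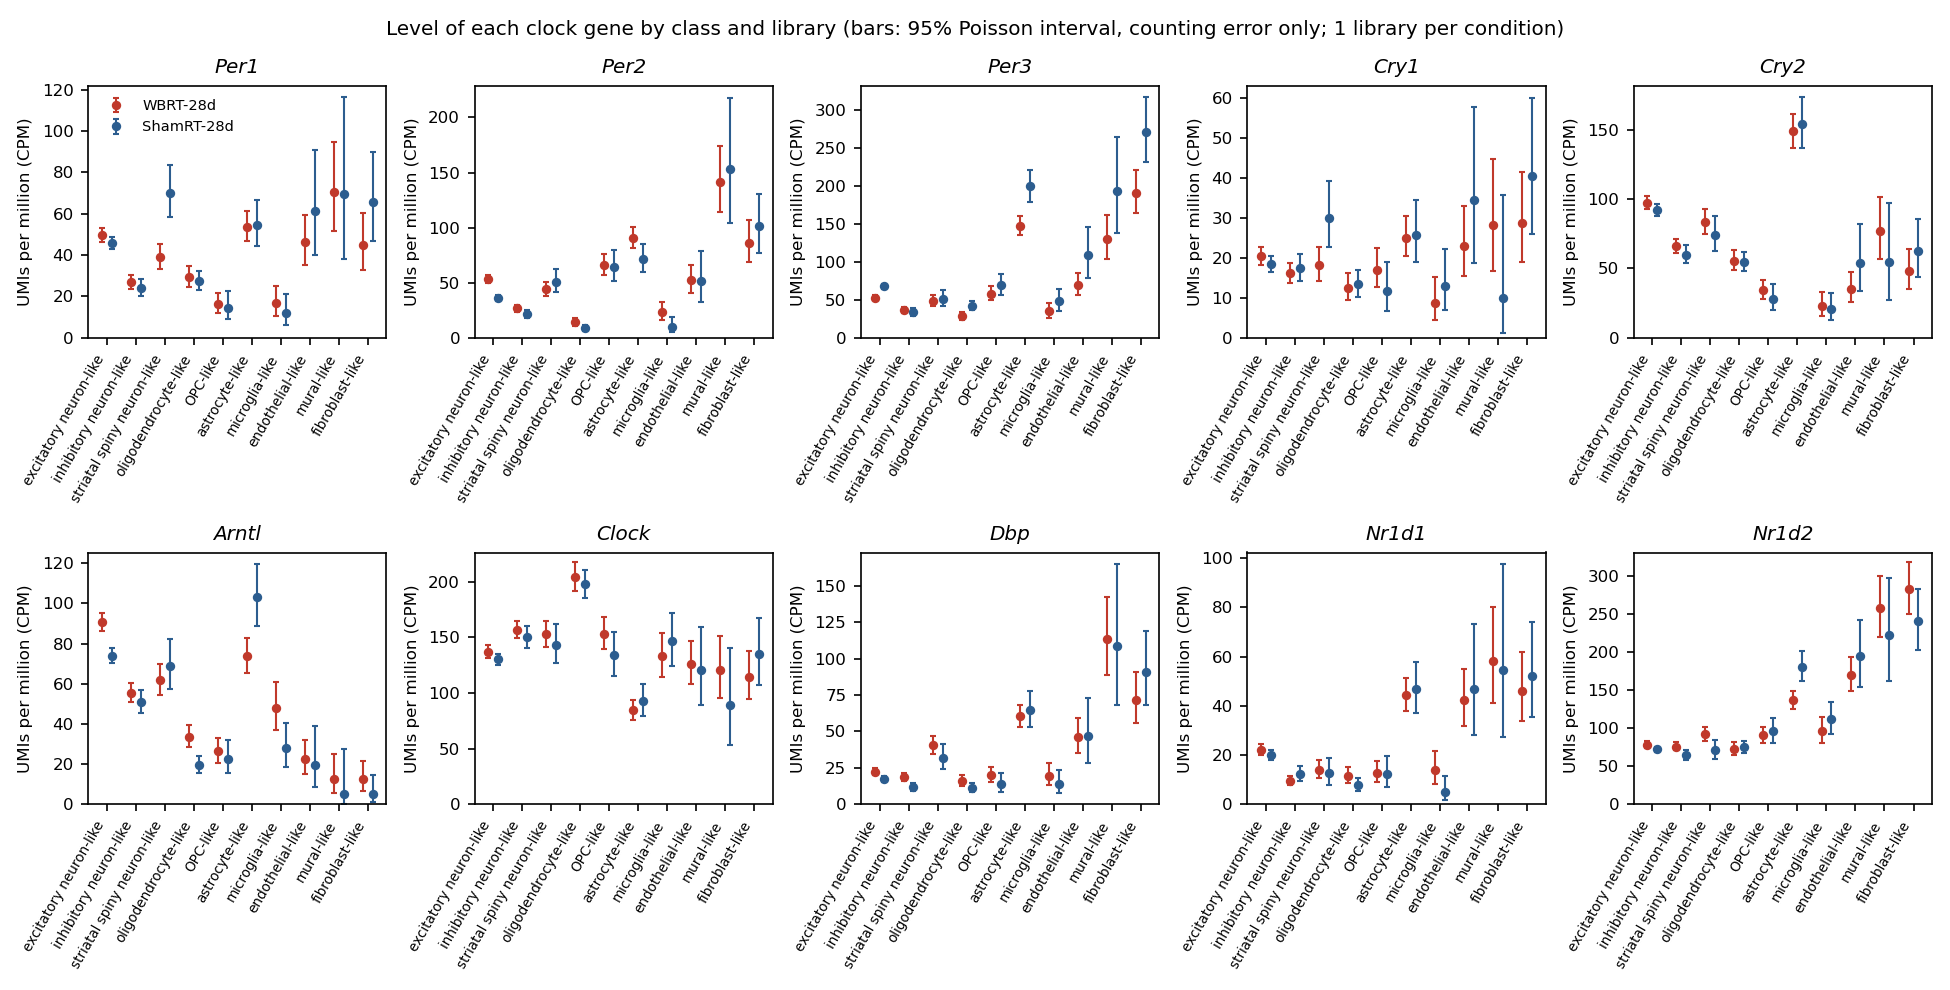
Level of each clock gene (CPM, 1 panel per gene) in each class, with WBRT-28d left of ShamRT-28d and exact 95% Poisson intervals for counting error. In the Per3 panel WBRT-28d is under ShamRT-28d in every class except inhibitory neuron-like nuclei (36.6 and 33.5 CPM).

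Per2 was called higher in 4 classes and was over 1 in 16 of 23 clusters, 5 of them called and none called lower. In thinned nuclei it was called in 0 classes. With free RNA subtracted it was called in 1, the excitatory neuron-like nuclei, to which the subtraction was not applied. Excitatory neuron-like nuclei had 53.0 CPM in WBRT-28d (900 UMIs) and 35.9 CPM in ShamRT-28d (712 UMIs), a ratio of 1.47 (1.33 to 1.63). A single cluster carried much of this. Cluster 10, of 502 nuclei in WBRT-28d and 326 in ShamRT-28d, had 72.3 CPM in WBRT-28d and 31.0 CPM in ShamRT-28d, a ratio of 2.33 (1.86 to 2.94). Without it the class had a ratio of 1.247, just short of the call, and with thinned nuclei 1.20. In astrocyte-like nuclei Per2 had 90.6 CPM in WBRT-28d (358 UMIs) and 71.3 CPM in ShamRT-28d (127 UMIs), a ratio of 1.27 (1.04 to 1.57), and it was 0.984 in the smaller of the 2 astrocyte-like clusters alone. The call ended in thinned nuclei (1.10), with doublets kept (1.21) and with free RNA subtracted (1.24). It was the only gene called higher in a class where 3 other clock genes were called lower.

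In microglia-like nuclei Per2 had 23.2 CPM in WBRT-28d from 32 UMIs and 9.98 CPM in ShamRT-28d from 10 UMIs, a ratio of 2.32 (1.11 to 5.30). In oligodendrocyte-like nuclei it had 13.8 CPM in WBRT-28d (62 UMIs) and 8.57 CPM in ShamRT-28d (41 UMIs), a ratio of 1.61 (1.07 to 2.46), and neither of its 2 clusters was called alone. Free RNA predicted from the neuron genes equals 65.6% of the Per2 of oligodendrocyte-like nuclei in WBRT-28d and 34.9% of it in ShamRT-28d. With that amount subtracted the ratio was 0.854, on the other side of 1, and in microglia-like nuclei it was 1.94. The microglia-like ratio was 1.80 under the gate and 1.14 with doublets kept, and no call was made in either. Of the 8 neuron genes, 7 were called higher in oligodendrocyte-like and 6 in microglia-like nuclei. Per2 was under 1, and not called, in striatal spiny neuron-like (0.865), mural-like (0.922) and fibroblast-like nuclei (0.852).

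Per1 was called in 1 class. Striatal spiny neuron-like nuclei had 38.9 CPM in WBRT-28d (165 UMIs) and 70.1 CPM in ShamRT-28d (128 UMIs), a ratio of 0.554 (0.437 to 0.704). Cry1 was also called lower in this class alone, though its ratio was under 1 in 7 of 10 classes. Spiny neuron-like nuclei had 18.1 CPM of Cry1 in WBRT-28d (77 UMIs) and 30.1 CPM in ShamRT-28d (55 UMIs), a ratio of 0.602 (0.420 to 0.867). In thinned nuclei Per1 kept a ratio of 0.559 and Cry1 came to 0.867, which is not called. With doublets kept Cry1 was at 0.738, not called, and under the gate at 0.376. For both genes the interval in spiny neuron-like nuclei, a class of 1 cluster, does not meet that in excitatory neuron-like nuclei, where Per1 had a ratio of 1.08 (0.981 to 1.19) and Cry1 of 1.11 (0.954 to 1.29). Excitatory neuron-like clusters differed in Per1, at 1.74 (1.42 to 2.15) in cluster 10 and 0.674 (0.496 to 0.913) in cluster 20. The interval of cluster 20 meets that of the spiny neuron-like nuclei. Of 22 clusters, 1 was called higher in Per1 and 2 lower. Several immediate early genes, which neurons switch on within minutes of stimulation and which share that property with Per1, were also lower in spiny neuron-like nuclei. Of 9 tested there, 4 were called lower, against 9.18% of all genes, and all 9 were under 1. Their part in the ratio of Per1 was not tested.

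Arntl, the activator that Rev-erb represses, went in different directions in different glia. Oligodendrocyte-like nuclei had 33.4 CPM in WBRT-28d (150 UMIs) and 19.4 CPM in ShamRT-28d (93 UMIs), a ratio of 1.72 (1.32 to 2.25). Microglia-like nuclei had 47.8 CPM in WBRT-28d (66 UMIs) and 27.9 CPM in ShamRT-28d (28 UMIs), a ratio of 1.71 (1.08 to 2.77). Astrocyte-like nuclei had 73.7 CPM in WBRT-28d (291 UMIs) and 103 CPM in ShamRT-28d (184 UMIs), a ratio of 0.713 (0.591 to 0.862). The interval of the astrocyte-like ratio does not meet those of the others. With free RNA subtracted the ratios were 1.47 in oligodendrocyte-like, 1.51 in microglia-like and 0.667 in astrocyte-like nuclei, and the microglia-like call ended, as it did under the gate (1.41). In thinned nuclei the calls in oligodendrocyte-like (1.26) and astrocyte-like nuclei (0.898) ended.

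In excitatory neuron-like nuclei Arntl had 90.8 CPM in WBRT-28d and 74.0 CPM in ShamRT-28d, a ratio of 1.23 (1.14 to 1.32) that is just short of the call. Over clusters Arntl was over 1 in 17 of 22, with 6 called higher and 1 lower. Among named clusters the highest ratio was in inhibitory neuron-like cluster 18, of 293 nuclei in WBRT-28d and 76 in ShamRT-28d, with 77.7 CPM in WBRT-28d and 37.2 CPM in ShamRT-28d, a ratio of 2.09 (1.23 to 3.77). Mural-like and fibroblast-like nuclei had too few UMIs of Arntl for a call, with 8 and 12 in WBRT-28d and 1 and 3 in ShamRT-28d.

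Dbp, the D-box activator, was called higher in inhibitory neuron-like, excitatory neuron-like and oligodendrocyte-like nuclei. Inhibitory neuron-like nuclei had 18.5 CPM in WBRT-28d (191 UMIs) and 11.5 CPM in ShamRT-28d (67 UMIs), a ratio of 1.6 (1.21 to 2.15). Excitatory neuron-like nuclei had 22.4 CPM in WBRT-28d and 17.3 CPM in ShamRT-28d, a ratio of 1.30 (1.12 to 1.51). Cluster shares differed inside these classes, as in inhibitory neuron-like cluster 22 with 201 nuclei in WBRT-28d and 13 in ShamRT-28d. Without it the inhibitory ratio was 1.36 and still called, and no single cluster left out ended that call. The clusters with enough nuclei in both libraries were also weighted alike, which left out cluster 22 and excitatory neuron-like clusters 27 and 31. The ratio was then 1.29 in inhibitory and 1.11 in excitatory neuron-like nuclei, both nearer to 1 and no longer called. The inhibitory call also ended in thinned nuclei (1.20), and the excitatory one under the gate (1.21) and without cluster 14 (1.22). In oligodendrocyte-like nuclei Dbp had 16.1 CPM in WBRT-28d and 10.9 CPM in ShamRT-28d, a ratio of 1.48 (1.02 to 2.15), which was 1.16 with free RNA subtracted, 1.43 under TMM scaling 1.40 without the mitochondrial limit and 1.26 without cluster 8, with no call in any of these. Only 1 of 22 clusters was called, higher, and 16 were over 1. Where Dbp was highest, in mural-like nuclei (113 CPM in WBRT-28d and 109 CPM in ShamRT-28d), the ratio was 1.04 (0.637 to 1.76).

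Nr1d2, the gene of Rev-erb beta, was lower in astrocyte-like nuclei, with 137 CPM in WBRT-28d (541 UMIs) and 181 CPM in ShamRT-28d (322 UMIs), a ratio of 0.757 (0.659 to 0.872). In striatal spiny neuron-like nuclei it had 91.9 CPM in WBRT-28d and 71.2 CPM in ShamRT-28d, a ratio of 1.29 (1.06 to 1.59), which was 0.999 when nuclei were gated singly on markers and 1.22, not called, under TMM scaling. The call also ended in thinned nuclei (1.33). Nr1d2, Per3 and Arntl were thus all lower in astrocyte-like nuclei. Without cluster 2, the larger of the 2 astrocyte-like clusters, the ratios were 0.801 for Nr1d2, 0.729 for Per3 and 0.697 for Arntl, and none of these was called. Nr1d1, Clock and Cry2 were called in no class. The class ratios of Clock lay between 0.852 and 1.36, those of Cry2 between 0.654 and 1.41, and those of Nr1d1 between 0.768 and 2.76, the highest from 19 UMIs in microglia-like nuclei of WBRT-28d and 5 in ShamRT-28d.

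**Figure D4:**
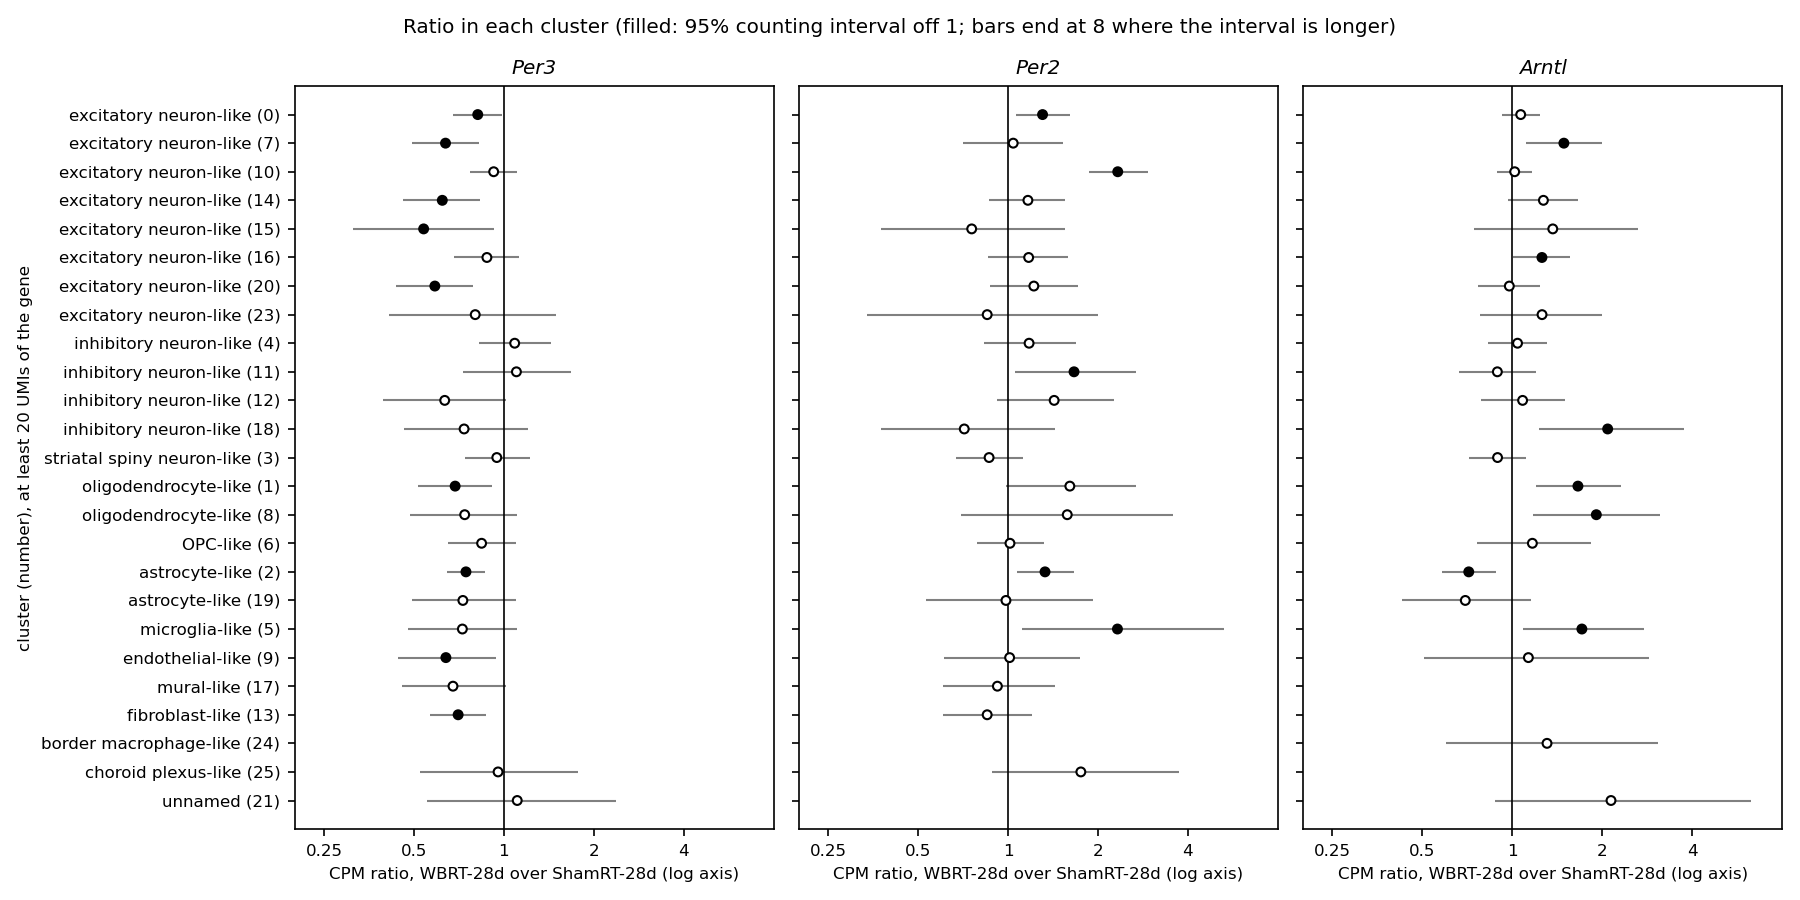
CPM ratio, WBRT-28d over ShamRT-28d (log axis), of Per3, Per2 and Arntl in each cluster with at least 20 UMIs of the gene, with 95% intervals for counting error and filled points where the interval excludes 1. For Per3 21 of 24 clusters lie under 1, and for Per2 16 of 23 and for Arntl 17 of 22 lie over 1.

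The highest class was the same in both libraries for most of the clock genes, and likeness of the whole order was not measured. Per3 and Nr1d2 were highest in fibroblast-like nuclei in WBRT-28d and in ShamRT-28d, Per2, Dbp and Nr1d1 in mural-like, Cry2 in astrocyte-like and Clock in oligodendrocyte-like nuclei. Clock ran from 84.3 CPM in astrocyte-like to 204 CPM in oligodendrocyte-like nuclei of WBRT-28d, and in ShamRT-28d from 89.1 CPM in mural-like to 198 CPM in oligodendrocyte-like nuclei. Arntl was highest in excitatory neuron-like nuclei of WBRT-28d (90.8 CPM) and in astrocyte-like nuclei of ShamRT-28d (103 CPM). Per1 was highest in mural-like nuclei of WBRT-28d (70.8 CPM) and in striatal spiny neuron-like nuclei of ShamRT-28d (70.1 CPM). Cry1 was highest in fibroblast-like nuclei of both libraries. In mural-like nuclei Cry1 came next in WBRT-28d (28.3 CPM, 18 UMIs) and was lowest in ShamRT-28d (9.91 CPM, 2 UMIs). Most neighbours in these orders could not be told apart, since 0 to 4 of the 9 neighbouring classes had intervals that did not meet.

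Ratios between clock genes inside a library do not depend on how the libraries are scaled, and genes that peak at opposite times move apart when the hour differs. Over all kept nuclei, Arntl UMIs per Dbp UMI were 2.26 in WBRT-28d and 2.89 in ShamRT-28d, an odds ratio of 0.781 (0.704 to 0.865). Arntl per Per3 went the other way, at 1.08 in WBRT-28d and 0.859 in ShamRT-28d, an odds ratio of 1.26 (1.17 to 1.36). Arntl per Nr1d1 was 3.18 in WBRT-28d and 3.23 in ShamRT-28d (0.983, interval 0.879 to 1.10), and Arntl per Nr1d2 was 0.676 in WBRT-28d and 0.702 in ShamRT-28d (0.963, 0.898 to 1.03). Over all kept nuclei, the ratios of Arntl to its rhythmic opposites thus had no common direction. They were lower with Dbp, higher with Per3 and not distinguishable from 1 with Nr1d1 and Nr1d2. These pairs do depend on the mix of classes, which differed, and they were not standardized for it. With the same mix in both libraries, the single-gene ratios of Arntl (1.14, interval 1.08 to 1.21) and Dbp (1.21, 1.10 to 1.32) lay close together. Those of Per3, Nr1d1 and Nr1d2 were then 0.793, 1.04 and 1.04.

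Clock per Per2 was 3.18 in WBRT-28d and 4.07 in ShamRT-28d, an odds ratio of 0.781 (0.725 to 0.842), and Cry1 per Dbp was 0.662 in WBRT-28d and 0.912 in ShamRT-28d, an odds ratio of 0.725 (0.636 to 0.827). Within classes, the odds ratio of Arntl to Per3 was 1.57 (1.40 to 1.75) in excitatory neuron-like, 2.50 (1.76 to 3.58) in oligodendrocyte-like and 2.35 (1.246 to 4.48) in microglia-like nuclei, and 0.966 (0.765 to 1.22) in astrocyte-like nuclei. That of Arntl to Dbp had an interval off 1 only in inhibitory neuron-like nuclei, at 0.680 (0.490 to 0.937). In excitatory neuron-like nuclei it was 0.944 (0.80 to 1.11). The class values thus differ for the same pair of genes.

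The share of nuclei with at least 1 UMI followed the levels. Per2 was found in 14% of nuclei of WBRT-28d (Clopper-Pearson 95% interval 13.4 to 14.6) and 10.7% of nuclei of ShamRT-28d (10.1 to 11.3), and Dbp in 9.53% of WBRT-28d and 7.24% of ShamRT-28d. Per3 was found in 17.8% of nuclei of WBRT-28d and 19.6% of ShamRT-28d. The intervals were apart and higher in WBRT-28d for 4 of the 10 genes (Per2, Dbp, Arntl and Nr1d2) and lower for 1 (Per3). In nuclei thinned to 1000 UMIs, which left out 0 nuclei of WBRT-28d and 465 of ShamRT-28d, Per2 was found in 4.36% of WBRT-28d and 3.68% of ShamRT-28d, Dbp in 3.27% and 2.5%, and Per3 in 6.25% and 6.99%. Free RNA adds to such shares. In microglia-like nuclei, where free RNA predicted from neuron genes equals 50.2% of Per2 in WBRT-28d and 40.3% in ShamRT-28d, the share with Per2 was 4.12% in WBRT-28d and 1.82% in ShamRT-28d.

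Other clock and accessory genes were counted from a list of 18, all with enough UMIs over all kept nuclei. Of these, 1 was called higher and 2 lower, against 10.6% and 13.1% of all genes. Rora, whose receptor activates Arntl, was called higher, with 1876 CPM in WBRT-28d and 1476 CPM in ShamRT-28d, a ratio of 1.27, which was 1.17 and not called with the class mix standardized. Ciart, a repressor of the loop, was called lower, with 12.1 CPM in WBRT-28d and 16.5 CPM in ShamRT-28d (0.734), though not in thinned nuclei (0.868), as was Fbxl21, which marks Cry proteins for turnover, with 2.69 CPM in WBRT-28d and 3.63 CPM in ShamRT-28d (0.742). The median log2 ratio of the list was 0.12. Ciart was under 1 in 15 of 16 clusters, 4 of them called lower. Tef (1.14, interval 1.10 to 1.19) and Hlf (1.20), which bind the same D-box as Dbp, had ratios over 1 that were not called. Npas2, which can stand in for Clock, had a ratio of 1.13 (1.09 to 1.17), with 11 clusters called higher and 2 lower of 23. Its highest class ratios, 4.05 and 3.97, were in oligodendrocyte-like and microglia-like nuclei, 2 classes where the neuron genes were also higher. It was called lower in striatal spiny neuron-like nuclei (0.738).

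Of 8 genes that the clock drives in many tissues, Klf10 and Coq10b were called lower and Lonrf3 higher. The shares over all genes were 13.1% lower and 10.6% higher, and 8 genes are too few to set apart from them. Klf10 had 11.8 CPM in WBRT-28d and 25.9 CPM in ShamRT-28d, a ratio of 0.454, and Coq10b had 34.4 CPM in WBRT-28d and 50.7 CPM in ShamRT-28d, a ratio of 0.679. Both were under 1 in most clusters, Klf10 in 11 of 14 and Coq10b in 21 of 24, with 7 called lower each. Lonrf3 had a ratio of 1.33, and 1.10 with the class mix standardized, at which it was not called. The list's median log2 ratio was -0.08.

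Clock genes also answer to other signals, and 3 lists of such genes stood apart between the libraries in parts. Of 10 immediate early genes, which follow neuronal activity and handling, 4 were called lower (Fos, Fosb, Nr4a1 and Npas4), against 13.1% of all genes, 0 were called higher, and all 10 were under 1, with a median log2 ratio of -0.32. In thinned nuclei 1 was called lower and 1 higher, and Fos came to 1.18. With the class mix standardized Egr1 (1.07) and Arc (1.04) were over 1, and Nr4a1 (0.832) was not called. The direction differed by class. All that were tested were under 1 in inhibitory neuron-like, striatal spiny neuron-like, endothelial-like and mural-like nuclei. In oligodendrocyte-like nuclei all 8 tested were over 1 (median log2 ratio 0.47), with Btg2 called higher, against 16.8% of genes. In astrocyte-like nuclei 3 of 6 were over 1, with Junb called higher, against 8.24%. The other 2 lists were again counted over all kept nuclei. Of 10 genes of the glucocorticoid response, which induces Per1 in many tissues, Fkbp5 (1.43), Tsc22d3 (1.5), Zbtb16 (1.41) and Sult1a1 (1.34) were called higher, against 10.6% of all genes. Pdk4 (0.746) was called lower. In thinned nuclei 2 were called higher, without Tsc22d3 and Sult1a1, and with doublets kept Pdk4 (0.855) was not called. Sult1a1 was at 1.08 (0.843 to 1.38) with the class mix standardized and was not called. Zbtb16 was over 1 in 23 of 24 clusters, with 17 called higher. Of 8 temperature-responsive genes, Hspa8 (1.36), Hsph1 (1.29), Hsp90aa1 (1.31) and Hspa1a (2.30, from 69 UMIs in WBRT-28d and 22 in ShamRT-28d) were called higher, against 10.6% of all genes. Dnajb1 (0.796) was called lower, against 13.1%, and was not called under TMM scaling. Of the genes not called, Cirbp was at 0.912, Rbm3 at 0.965 and Hspa1b at 1.29 with the class mix standardized. Hsp90aa1 was over 1 in 25 of 25 clusters. In thinned nuclei 1 of the 8 was called higher (Hspa8) and 0 lower. The part of these signals in the ratios of the clock genes was not tested.

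**Figure D5:**
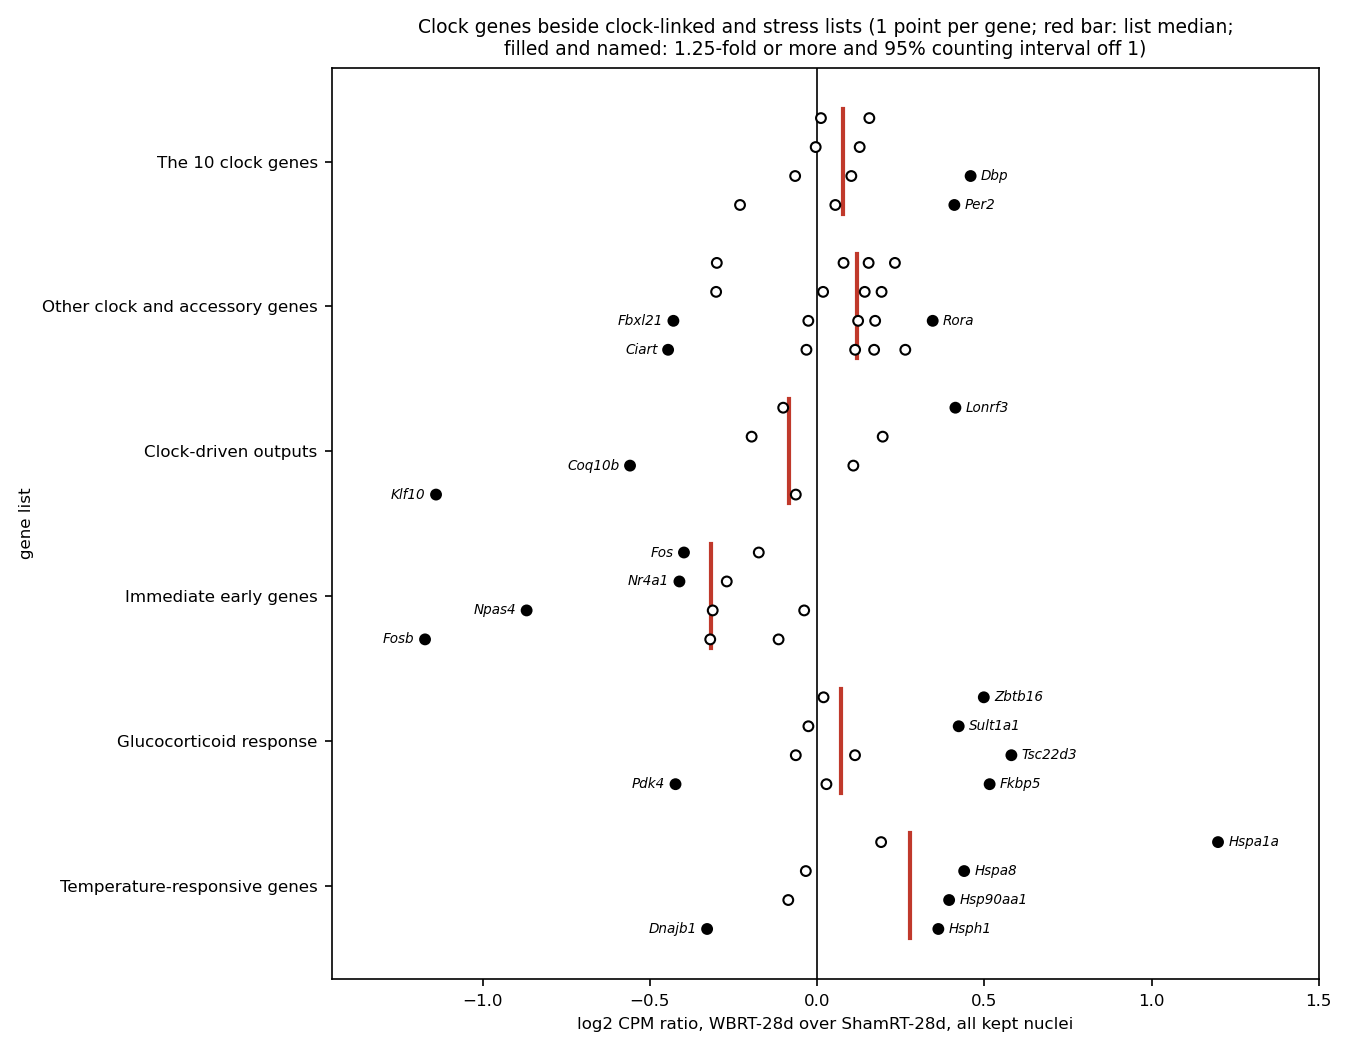
Log2 ratio of CPM, WBRT-28d over ShamRT-28d, over all kept nuclei for the clock genes and for each further list, 1 point per gene, with the median of each list marked. The immediate early genes have a median of -0.32 and lie under 0, while the clock genes have a median of 0.08.

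Likeness of pattern was measured by Pearson's r of log2(CPM + 1) over the 20 combinations of class and library, for the members with at least 20 UMIs in each, which were Per3 and Nr1d2 only. Genes with at least 100 UMIs were compared, and the points share libraries, depth and free RNA. The genes most like Per3 were Yap1 (0.914), 5930430L01Rik (0.903) and Olfml2a (0.895). Those most like Nr1d2 were Aldh2 (0.953), Kank2 (0.952) and Col5a2 (0.949).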

How the data were processed

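Nuclei of pooled frozen brains (2 mice per library) were barcoded on the Chromium system. The authors used Cell Ranger with a pre-mRNA reference for mm10, so introns count. They deposited raw UMI counts, not normalized, for each gene and barcode. Seurat 3.0 and R 3.5.3 also stand in the notes of the submitters on processing. Cell types were not annotated and were rebuilt here, so a difference from the study may come from rebuilt names.

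WBRT-28d held 15986 barcodes (68423922 UMIs) and ShamRT-28d 11469 (45511469 UMIs). Barcodes under 500 detected genes (0 and 326) or over 5% mitochondrial UMIs (318 and 107) were left out. Scrublet in scanpy 1.11.5 scored doublets. Its own threshold moved with the random seed, so the highest scores up to the expected rate (0.8% per 1000 barcodes, that is 12.8% and 9.18%) were removed, 2044 and 1052 barcodes. Both libraries were clustered together in Seurat 5.3.0 under R 4.3.3 without integration (2000 variable genes, none a clock gene, 30 components, 20 neighbors, resolution 0.8). A cluster was named when a type's marker score reached 0.4 and was 2 times that of the next type, with at least 3 markers each in 5% of nuclei. Neurons were divided by their transmitter genes at a ratio of 2. The rest was done in Python 3.11.15 with scipy 1.17.1, numpy 2.4.6, matplotlib 3.10.9 and pandas 2.3.3.

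UMIs were summed per class and library and divided by the total (CPM). Intervals are exact, at 95%, for counting error only, and treat the nuclei of a library as 1 sample. PCR copies are collapsed by UMI. The steps were tested on simulated data. Free RNA of a gene in a class was predicted by multiplying its level in the whole library by the share of the level of 8 neuron genes that the class holds. Clock genes and lists were chosen with earlier results of these data known. Named genes are the 10 clock genes throughout, list members that were called or have the most UMIs, and per member the 3 genes with the most similar pattern. Clusters 10, 18, 20 and 22 and genes counted over clusters were singled out after their values were seen. Calls over clusters were counted for the clock genes and list genes only, so no share over all genes stands beside them. Alternatives were TMM (edgeR 4.0.16) and median-ratio scaling, doublets kept, no mitochondrial limit, at least 1000 genes, thinning to 1000 UMIs, marker gating nucleus by nucleus, free RNA subtracted, a standardized class mix, no UMI minimum and a fold of 1.5. The unnamed clusters left out, and each cluster of a class left out in turn, were added after the data had been seen. So was the weighting alike, within a class, of the clusters with enough nuclei in both libraries. Sequences are from RefSeq, GRCm38.p6, and positions from GENCODE vM21.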

Additional observations from a re-analysis of the deposited data

How the results depend on the processing

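No paired analysis was possible because each condition has 1 library, and for the same reason no library could be left out. Without the unnamed clusters Per2 and Dbp had ratios of 1.38 and 1.40 over all kept nuclei, and the mitochondrial limit moved no count by over 1.5 times. TMM and median-ratio scaling ended the calls of Nr1d2 in striatal spiny neuron-like nuclei, of Dbp in oligodendrocyte-like nuclei and of Dnajb1, and moved no other count by over 1.5 times. Over all kept nuclei, clock genes called higher were 1 with the class mix standardized, 1 after thinning and 0 at a fold of 1.5, against 2, and those called lower were 1 with the class mix standardized, against 0. With the class mix standardized, clock genes called higher were 2 under the nucleus gate and 0 after thinning, and those called lower 0 with doublets kept, against 1 each. Pairs of a clock gene and a class called higher were 2 after thinning, 5 with free RNA subtracted and 5 at a fold of 1.5, against 10, and pairs called lower were 15 with free RNA subtracted and 3 at a fold of 1.5, against 9. Over all genes the pairs called higher were 6644 after thinning and 6648 with free RNA subtracted, against 12507. The free RNA step was applied to the 7 classes that are not neurons, and fibroblast-like nuclei gave no value under the gate. Of the other clock genes, 0 were called higher with the class mix standardized and at a fold of 1.5, against 1, and 1 was called lower after thinning and 0 at a fold of 1.5, against 2. Of the clock-driven outputs, 0 were called higher with the class mix standardized, after thinning and at a fold of 1.5, against 1, and 1 was called lower at a fold of 1.5, against 2. After thinning, the odds ratio of Arntl to Dbp was 0.875 and that of Arntl to Nr1d2 1.09. Shares with intervals apart were higher for 2 clock genes after thinning, 2 with at least 1000 genes and 8 with doublets kept, against 4, and lower for 0 after thinning, 4 with at least 1000 genes and 0 with doublets kept, against 1. Among called ratios, directions turned for Nr1d2 in striatal spiny neuron-like nuclei under the gate (0.999), Per2 in oligodendrocyte-like nuclei with free RNA subtracted (0.854) and Per2 in astrocyte-like nuclei when clusters were left out in turn (0.984 to 1.33), and for Fos over all kept nuclei after thinning (1.18). Of clock genes not called over all kept nuclei, Clock was at 0.977 and Per1 at 1.05 after thinning. At a fold of 1.5, genes called higher were 0 of the glucocorticoid and 1 of the temperature list, against 4 each, and immediate early genes called lower were 2, against 4. Thinned counts hold fewer UMIs, and the cause of the other changes was not tested.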
